A study of Homo sapiens with 24 samples.

Results

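The voltage-gated ion channel genes and their relatives were followed in neurons exposed to 7 neurotoxicants. Members were the genes of the count matrix whose name starts with KCN, SCN with a digit and A or B, CACNA, CACNB, CACNG or HCN with a digit, leaving out antisense genes and the epithelial sodium channel names (SCNN), and with at least 50 reads over the 24 libraries. These rules kept 115 of 58051 genes. They comprised 76 potassium, 22 calcium, 13 sodium and 4 HCN channel genes. The prefix also takes in members without a voltage sensor, such as the inward rectifiers (KCNJ), the leak channels (KCNK) and auxiliary subunits, and 2 non-coding genes, KCNQ1DN and KCNIP4-IT1. Members just above the read minimum included KCNE1 with 59 reads and KCNJ10 with 70, and the nearest below it were CACNG1 with 46, CACNA1I with 41 and KCNJ18 with 32. Of the 115 members, 112 passed the low-count filter and were tested. The 3 not tested included CACNA2D3 with 85 reads and KCNE1.

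Ion channels set the electrical behaviour of a neuron. Sodium channels carry the upstroke of the action potential, potassium channels repolarise the membrane and hold it at rest, calcium channels couple voltage to transmitter release and gene regulation, and HCN channels open on hyperpolarisation. Dopaminergic neurons of the midbrain fire without synaptic input, and their pacing is known to involve T-type and L-type calcium channels, HCN channels, SK and A-type potassium channels, and ATP-sensitive and G-protein-gated inward rectifiers.

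The cells were neurons differentiated from LUHMES, an immortalised line of human mesencephalic precursors, in medium with tetracycline, cAMP and GDNF. Cultures received, for 6 h, 5 µM MS275 (entinostat, which blocks histone deacetylases of class I), 5 µM paraquat (a bipyridyl herbicide), 5 µM MPP (1-methyl-4-phenylpyridinium, an inhibitor of mitochondrial complex I), 2 µM ziram (a fungicide, zinc dimethyldithiocarbamate), 1 µM rotenone (another complex I inhibitor), 1 µM 6-HD (hydroxydopamine), 0.5 µM methylmercury, or 1% DMSO as the vehicle. Each of the 8 groups had 3 libraries of polyadenylated RNA, labelled as biological samples in triplicate of 1 cell line. The p-values thus refer to the spread among these samples, which was pooled over the 8 groups. Library totals ranged from 9688650 to 46863890 counted reads, of which the members took 0.24% to 0.337%. Levels are given as CPM, counts per megaread of the scaled library total. In bulk RNA, fewer cells of a type and less RNA per cell cannot be told apart.

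The neuronal label was checked against markers. The 8 pan-neuronal markers together stood at 4713 to 5909 CPM in MS275 libraries and 5098 to 6236 CPM in DMSO libraries. Among dopaminergic markers, the dopamine transporter gene SLC6A3 averaged 636 CPM and tyrosine hydroxylase (TH) 50.8 CPM in DMSO, whereas the vesicular transporter gene SLC18A2 averaged 0.320 CPM and PITX3 1.07 CPM. Of the 12 listed glial markers, SOX10 and MOG had 0 reads in MS275 and DMSO libraries, but the list summed to 185 to 201 CPM in DMSO libraries. Neural precursor markers summed to 145 to 174 CPM and cycling cell markers to 272 to 311 CPM in DMSO libraries.

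The 250 bases before the RefSeq start site are shown for 5 members on which the results turn: KCNK3, a potassium channel called higher with 3 toxicants, KCNJ5 and KCNJ2, inward rectifiers among the largest increases with MS275, SCN8A, the sodium channel higher with MPP, and CACNB1, the largest decrease with MS275. Capitals mark GC boxes, the letters GGGCGG on either strand, the core of the sites that SP-family factors are known to bind. The sequences are RefSeq promoters on GRCh38.p14, written 5′ to 3′ on the gene's strand. For all but KCNJ5 the RefSeq start used lies inside the GENCODE span of the gene, farthest from its upstream end for KCNJ2 and SCN8A.
KCNK3, chr2:26692472-26692721, plus strand: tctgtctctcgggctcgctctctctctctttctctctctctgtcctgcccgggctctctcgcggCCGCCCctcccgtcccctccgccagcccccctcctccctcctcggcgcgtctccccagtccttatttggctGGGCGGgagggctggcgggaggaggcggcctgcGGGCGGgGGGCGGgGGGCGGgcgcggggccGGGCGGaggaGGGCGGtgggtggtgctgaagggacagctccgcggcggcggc
KCNJ5, chr11:128891106-128891355, plus strand: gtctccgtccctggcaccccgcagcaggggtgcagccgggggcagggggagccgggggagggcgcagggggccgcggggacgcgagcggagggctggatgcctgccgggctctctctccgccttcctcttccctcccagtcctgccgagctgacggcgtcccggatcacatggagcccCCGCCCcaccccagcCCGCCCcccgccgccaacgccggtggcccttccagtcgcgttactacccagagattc
KCNJ2, chr17:70169282-70169531, plus strand: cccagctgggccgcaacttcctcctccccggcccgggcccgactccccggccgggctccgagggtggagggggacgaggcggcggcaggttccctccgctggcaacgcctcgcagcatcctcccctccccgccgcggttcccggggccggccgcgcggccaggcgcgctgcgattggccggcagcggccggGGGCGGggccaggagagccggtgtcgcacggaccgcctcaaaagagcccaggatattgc
SCN8A, chr12:51590983-51591232, plus strand: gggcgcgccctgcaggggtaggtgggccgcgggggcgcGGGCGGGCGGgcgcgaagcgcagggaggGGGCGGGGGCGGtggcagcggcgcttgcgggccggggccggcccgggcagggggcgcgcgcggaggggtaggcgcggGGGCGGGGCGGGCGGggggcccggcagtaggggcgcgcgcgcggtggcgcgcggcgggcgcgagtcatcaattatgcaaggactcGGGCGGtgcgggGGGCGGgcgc
CACNB1, chr17:39197670-39197919, minus strand: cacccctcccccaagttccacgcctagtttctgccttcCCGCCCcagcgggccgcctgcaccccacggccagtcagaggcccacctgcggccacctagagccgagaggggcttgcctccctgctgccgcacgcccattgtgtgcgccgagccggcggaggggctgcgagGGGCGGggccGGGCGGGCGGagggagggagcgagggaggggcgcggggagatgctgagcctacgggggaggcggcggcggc
These 250 bases held 7 GC boxes in KCNK3, 2 in KCNJ5, 1 in KCNJ2, 9 in SCN8A (some overlapping) and 4 in CACNB1. None of the 5 held TATAAA or the cAMP response element TGACGTCA in the 300-base window, which adds 50 bases after the start. RefSeq promoters were matched by symbol for 82 of the 115 members. Over the 300-base window GGGCGG was found in 55 of the 82 (67.1%), against 12174 of 27305 promoters of all genes (44.6%). The median GC content was 65.7% in the member promoters and 58.3% over all promoters. The GC box was present in 21 of 27 promoters of members higher in MS275, 4 of 5 of members lower in MS275, and 29 of 48 of tested members not called there. TATAAA was found in 3 of the 82 (3.66%), against 12% of all promoters. These are matches of letters and were not tested as sites.

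Before any toxicant effect, the DMSO libraries were used to ask which channels these neurons transcribe. Levels of different genes are compared per kb of exon (GENCODE 29). Among the abundant members, CACNA1H, a low-threshold T-type calcium channel, stood at 29.8 ± 0.70 CPM per kb (SD, n = 3), and KCNJ3, a subunit of G-protein-gated inward rectifiers, at 23.8 ± 0.48 CPM per kb. Their spreads did not overlap.

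Behind them CACNG4, of the calcium channel gamma family, stood at 20.5 ± 0.90 CPM per kb and CACNA2D1, an alpha-2-delta subunit, at 20.4 ± 0.44 CPM per kb, which did not differ beyond their spread. KCNJ12, an inward rectifier of near-identical sequence to KCNJ18, stood at 18.9 ± 0.88, SCN3A at 18.5 ± 0.34 and KCNB2, a delayed rectifier, at 18 ± 1.2 CPM per kb, and these 3 overlapped too. SCN3A, a sodium channel most abundant in the developing brain, was the leading sodium channel gene. Below it were SCN3B, a beta subunit, at 5.10 CPM per kb, SCN8A, the channel of resurgent and persistent sodium current, at 4.04, and SCN9A at 3.39. SCN2A, the embryonic axonal channel, stood at 0.761 CPM per kb.

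Among HCN genes, HCN2 stood at 3.63 ± 0.64 CPM per kb, HCN3 at 3.07 ± 0.39 and HCN4 at 1.37 ± 0.099, so that HCN2 and HCN3 did not differ beyond their spread and HCN4 lay below both. The L-type pacemaker channel CACNA1D (0.0269 CPM per kb) and the T-type channel CACNA1G (0.0453 CPM per kb) were far lower than these, and far below the other T-type gene CACNA1H.

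**Figure D1:**
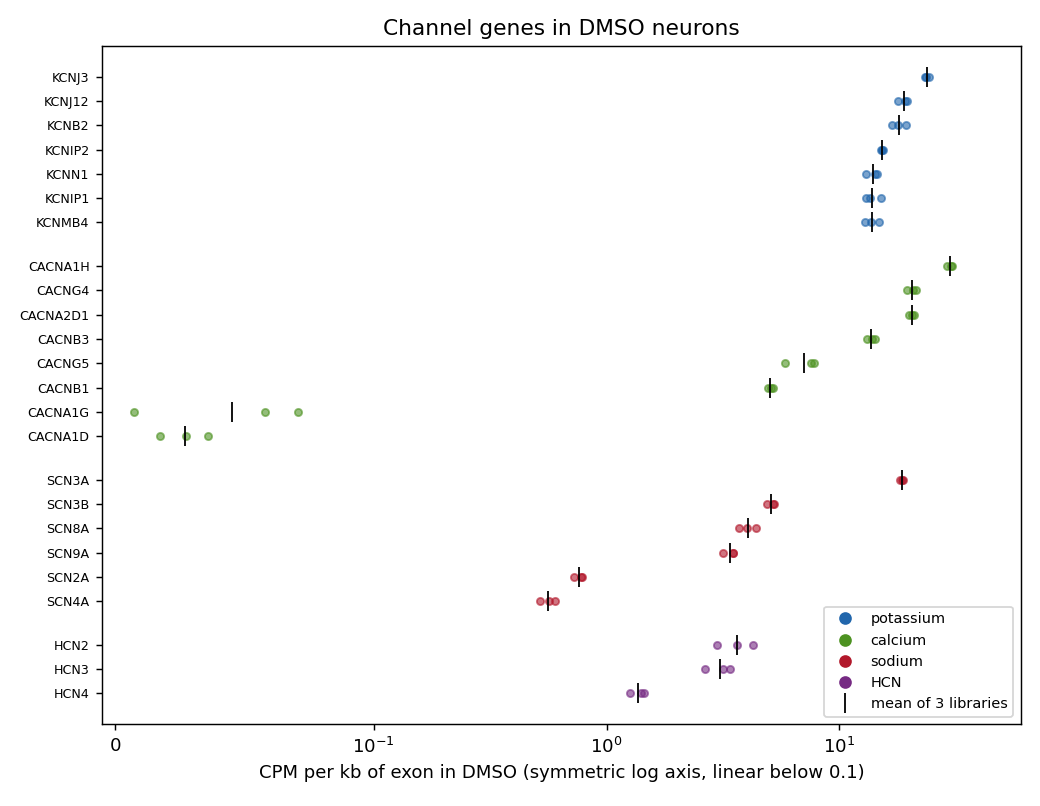
Levels of potassium, calcium, sodium and HCN channel genes named in the text in DMSO neurons, as CPM per kb of exon on a symmetric log axis. Each point is 1 of 3 libraries and the bar is their mean; CACNA1H stands at 29.8 CPM per kb, KCNJ3 at 23.8 and CACNA1G at 0.0453.

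Most of the channel genes called with MS275 were higher. Against DMSO, 41 of the 112 members rose and 7 fell at an edgeR adjusted p under 0.05 over all 18852 genes tested. Of the 41, 4 passed the low-count filter only through the MS275 libraries, where they had to be high, and among the 106 members that pass without those libraries 37 rose and 7 fell (median log2 fold change 0.50, a count added after seeing the data). The background was 43.2% of all genes called, 20.1% higher and 23% lower, so the share of members called (42.9%) was near the background and the split between directions was not. The median log2 fold change was 0.53 over the members and 0.04 over all genes. The libraries did not overlap for 66 members (58.9%), against 55.6% of all genes. Potassium channel genes summed to 1843 to 1964 CPM in MS275 libraries and 1395 to 1524 CPM in DMSO libraries. The sums of calcium channel genes, at 901 to 972 and 816 to 847 CPM in the same order, did not overlap either. Nor did those of HCN genes, at 37.7 to 45.8 and 31.5 to 36.7 CPM. Sodium channel sums overlapped, at 320 to 453 and 379 to 393 CPM.

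Level moved with these shifts over all genes. Of the 72 members under 10 CPM, 26 rose and 0 fell with a median log2 fold change of 0.77, and of the 40 members at 10 CPM or more, 15 rose and 7 fell with a median of 0.22. For all genes tested the same split gave 2108 higher and 445 lower of 8885 (median 0.48) below 10 CPM, and 1690 higher and 3893 lower of 9967 (median -0.16) above it. The members' median thus lay above that of all genes on each side of 10 CPM, a mean over all 24 libraries with MS275 included. The members under 10 CPM include 6 that passed the low-count filter only through the MS275 libraries (median 2.41, 4 higher). The split was not recounted without them. Across genes, which are not independent replicates, Spearman's rho of fold change with mean level was -0.44 over 112 members and -0.40 over 18762 genes.

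By class, 34 of 75 potassium channel genes rose and 3 fell (median log2 fold change 0.75). Of 21 calcium channel genes 5 rose and 3 fell (0.29), of 13 sodium channel genes 1 rose and 1 fell (0.03), and of 3 HCN genes 1 rose. These class counts include 4 rises of members that passed the low-count filter only through the MS275 libraries. They are KCNG3, KCNS3 and KCNJ10 among potassium and CACNA1F among calcium channel genes. Of the calcium pore subunits that pass without those libraries, 2 of 8 rose. Whether the classes differed from each other was not tested. Among kinds of potassium pore subunit, inward rectifiers rose in 9 of 11 tested (median 0.90), two-pore leak channels in 5 of 9 (0.95), Kv subunits in 10 of 19 (0.89), the KCNQ family in 2 of 5 (1.00) and the EAG family in 2 of 7 (0.16), with none of these falling. For inward rectifiers, leak channels and Kv subunits no direction turned under the other library scalings. Counting only members that pass the filter without the MS275 libraries, inward rectifiers rose in 8 of 10 and Kv subunits in 8 of 17, and the other 3 kinds were as above. Of the 10 Kv calls, 2 held in at most 1 of 6 fits that left out a library. The calcium- or sodium-activated channels rose in 2 of 8 and fell in 2.

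**Figure D2:**
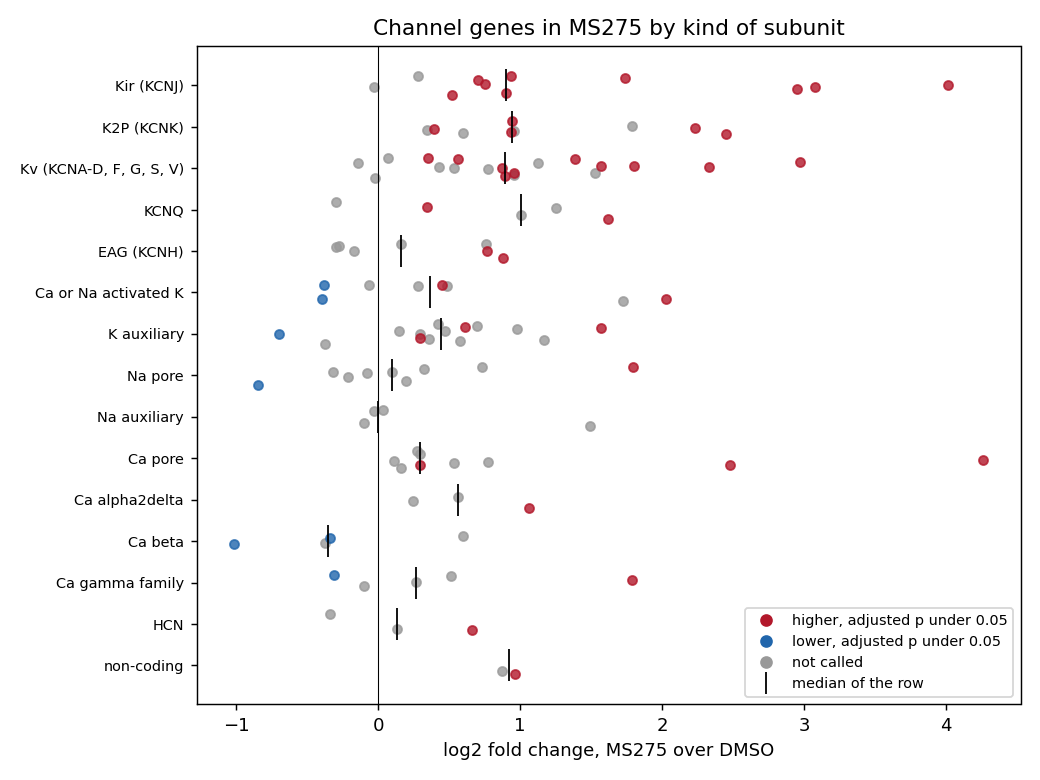
Log2 fold change of the 112 tested members in MS275 over DMSO, grouped by kind of subunit; red points rose, blue points fell, grey points were not called, and the bar is the median of the row. Inward rectifiers, leak channels and Kv subunits hold red points and no blue ones, whereas the calcium beta subunits hold blue ones and no red ones.

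The inward rectifiers conduct potassium near rest and pull the membrane away from threshold. KCNJ5 (chr11:128891356-128921035, plus strand, GRCh38), a G-protein-gated subunit that pairs with KCNJ3, stood at 28.4, 29 and 26.0 CPM in the MS275 libraries and 2.06, 3.35 and 4.14 CPM in the DMSO libraries. The unlabelled signed values in parentheses from here on are log2 fold changes. All 3 MS275 libraries lay far above all 3 DMSO libraries. KCNJ5 averaged 27.8 ± 1.57 CPM in MS275 and 3.18 ± 1.05 CPM in DMSO (SD, n = 3 each, as for all means here), a log2 fold change of 3.08 (95% interval 2.57 to 3.58, edgeR adjusted p = 3.78e-11). Its partner KCNJ3, far more abundant, was not called.

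KCNJ2 (chr17:70168673-70180048), the classical strong inward rectifier, had 13.3, 12.5 and 11.3 CPM in MS275 libraries and 1.49, 1.45 and 1.80 CPM in DMSO libraries. The groups were wide apart, with a log2 fold change of 2.95 ± 0.40 (SE, edgeR adjusted p = 5.29e-07). KCNJ4, another strong rectifier, averaged 12.5 ± 1.60 CPM in MS275 and 3.72 ± 0.852 CPM in DMSO (log2 fold change 1.74, edgeR adjusted p = 6.3e-08). KCNJ12 averaged 198 CPM in MS275 and 106 CPM in DMSO (0.90, edgeR adjusted p = 6.88e-07), so an abundant member of the family rose with the rare ones. The G-protein-gated genes KCNJ6 (0.75) and KCNJ9 (0.70) and the ATP-sensitive pore genes KCNJ8 (0.52) and KCNJ11 (0.93) rose as well, on the log2 scale. KCNJ8 libraries overlapped between the groups, and its call was lost without DMSO replicate 2 or 3 or MS275 replicate 1 or 2 (edgeR adjusted p up to 0.147). KCNJ6 was lost without DMSO replicate 3 or MS275 replicate 3 (up to 0.0919), KCNJ9 without DMSO replicate 3 (0.059), and KCNJ11 without MS275 replicate 1 (0.0611).

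KCNJ10, the inward rectifier best known from glia, had 49 reads in the 3 MS275 libraries and 3 reads in the 3 DMSO libraries. The ratio of its levels was 17.2, with an exact 95% interval of 5.55 to 86.2 that covers counting error only, and no test is given because the gene passed the low-count filter only through the MS275 libraries. Glial markers moved too. Of the 9 tested astrocyte and oligodendrocyte markers of 12 listed, 6 rose in MS275 and 1 fell, among them MBP at 42.5 CPM in MS275 and 16.4 CPM in DMSO, and AQP4 at 1.83 and 0.161 CPM in the same order. The summed level of that list was 200 to 232 CPM in MS275 libraries and 185 to 201 CPM in DMSO libraries, with SOX10 and MOG at 0. Of 7 neural precursor markers 5 rose, with sums of 232 to 257 CPM in MS275 libraries and 145 to 174 CPM in DMSO libraries. Of 6 muscle markers 4 were tested and 2 rose, with sums of 108 to 126 CPM in MS275 libraries and 78.2 to 83.2 CPM in DMSO libraries and MYL2 at 0. Of 6 cycling cell markers 3 fell, with sums of 244 to 302 CPM in MS275 libraries and 272 to 311 CPM in DMSO libraries. Over all genes tested 20.1% rose and 23% fell with MS275. The part of these cell types in the channel changes was not tested.

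Two-pore channels carry the leak that sets resting potential. KCNK3 (chr2:26692690-26733420, plus strand), the acid-sensitive TASK-1 channel, had 78.0, 82.6 and 67.8 CPM in MS275 libraries and 15.5, 16.8 and 16.2 CPM in DMSO libraries. The lowest MS275 library was well above the highest DMSO library. It averaged 76.1 ± 7.60 CPM in MS275 and 16.2 ± 0.647 CPM in DMSO, a log2 fold change of 2.23 (95% interval 1.98 to 2.49) with the smallest edgeR adjusted p of the members, 3.67e-14. KCNK5, the alkali-activated TASK-2 channel, averaged 14.5 ± 2.00 CPM in MS275 and 2.68 ± 0.301 CPM in DMSO (2.45 ± 0.23 SE, edgeR adjusted p = 1.08e-09). KCNK9 (0.94), KCNK12 (0.95) and KCNK6 (0.39) rose by less on the log2 scale. KCNK12 was lost whichever library was left out (edgeR adjusted p of 0.061 to 0.122), and KCNK6 without DMSO replicate 2 or 3 or MS275 replicate 1 (up to 0.153).

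Kv subunits repolarise the action potential, and those of the G and S groups are silent alone and modify KCNB channels. KCNG3 had 2.04, 1.39 and 1.71 CPM in MS275 libraries and 0.142, 0.242 and 0.237 CPM in DMSO libraries (log2 fold change 2.97 ± 0.80 SE), and it too passed the low-count filter only through the MS275 libraries, so no test is given. KCNG4 had 2.57, 1.95 and 2.67 CPM in MS275 libraries and 1.28, 0.485 and 0.414 CPM in DMSO libraries (1.80, edgeR adjusted p = 0.00549). Both stayed at low levels. The KCNG4 groups did not overlap, and the separation of KCNG3 carries no weight because of its filtering. KCNB2, a channel that such subunits join, averaged 82.2 CPM in MS275 and 64.5 CPM in DMSO (0.35). KCNQ1, a channel of heart and epithelia, averaged 6.55 CPM in MS275 and 2.09 CPM in DMSO (1.62, edgeR adjusted p = 0.000104), and the non-coding KCNQ1DN 10.9 and 5.57 CPM in the same order (0.97).

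Of the 8 calcium- or sodium-activated potassium channel genes 2 rose and 2 fell. KCNN3, the SK3 channel that shapes pacing in dopaminergic neurons, had 10.8, 10.9 and 12.7 CPM in MS275 libraries and 2.42, 2.79 and 3.10 CPM in DMSO libraries (log2 fold change 2.03 ± 0.24 SE, edgeR adjusted p = 5.54e-08). Its groups stood clearly apart. KCNN1, the SK1 gene and more abundant, had 43.1, 42.6 and 40.2 CPM in MS275 libraries and 56.6, 57.7 and 51.8 CPM in DMSO libraries (-0.40, edgeR adjusted p = 0.0103, and 0.0538 without DMSO replicate 2). These SK genes thus moved in opposite directions. KCNT2 (-0.38) fell with overlapping libraries and KCNT1 (0.45) rose, with calls that held in 2 and 4 of 6 fits without a library. KCNT2 was lost without DMSO replicate 1 or 3 or MS275 replicate 1 or 2, and KCNT1 without DMSO replicate 3 or MS275 replicate 1.

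Auxiliary potassium subunits were also split. KCNMB4, the beta-4 subunit of the BK channel typical of neurons, had 40.6, 44.3 and 39.7 CPM in MS275 libraries and 72.4, 66.8 and 63.0 CPM in DMSO libraries. Every MS275 library lay below every DMSO library, and the log2 fold change was -0.69 ± 0.10 (SE, edgeR adjusted p = 1.28e-06). KCNMB1, the beta-1 subunit typical of smooth muscle, averaged 9.66 CPM in MS275 and 3.28 CPM in DMSO (1.57, edgeR adjusted p = 6.95e-05). KCNMB1 lies within the span of KCNIP1 on chromosome 5, and shares no exon bases with it in GENCODE 29. KCNIP1, a subunit of A-type channels, had 70.6, 73.4 and 68.6 CPM in MS275 libraries and 50.4, 45.2 and 43.6 CPM in DMSO libraries (0.61, edgeR adjusted p = 4.59e-06).

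Among members at 1 CPM or more in either group, the largest log2 fold change with MS275 was that of a calcium channel. CACNA1G (chr17:50561068-50627474, plus strand), the T-type channel Cav3.1, had 10.5, 9.83 and 7.67 CPM in MS275 libraries and 0.0711, 0.687 and 0.562 CPM in DMSO libraries. The gene was close to absent in DMSO and present in every MS275 library. It averaged 9.34 ± 1.48 CPM in MS275 and 0.440 ± 0.325 CPM in DMSO, a log2 fold change of 4.26 (95% interval 3.06 to 5.46, edgeR adjusted p = 7.63e-07). CACNA1H, the T-type gene these neurons already transcribe, averaged 287 CPM in MS275 and 257 CPM in DMSO and was not called (edgeR adjusted p = 0.293). The strand setting of the counting is not given in the sources used here, so reads from exon bases that a gene shares with a gene on the other strand cannot be assigned. In GENCODE 29 such shared bases made up 3.32% of the exons of KCNJ2 (with KCNJ2-AS1), 2.72% of those of KCNQ1 (with KCNQ1OT1) and 12.2% of those of KCNIP2 (with KCNIP2-AS1), and CACNA1G shared none with CACNA1G-AS1.

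Auxiliary calcium channel subunits went both ways. CACNG5, of the gamma family that also escorts AMPA receptors, averaged 32.3 ± 2.82 CPM in MS275 and 9.26 ± 1.37 CPM in DMSO (1.79 ± 0.17 SE, edgeR adjusted p = 7.44e-10). CACNA2D2 averaged 38.1 CPM in MS275 and 18.2 CPM in DMSO (1.06, edgeR adjusted p = 6.18e-09). Of the 4 beta subunits, which carry pore subunits to the membrane, 2 fell and 0 rose. Among all genes tested 23% fell with MS275, and among those at 10 CPM or more 39.1% fell. Whether the beta subunits differed from these shares was not tested. CACNB1 (chr17:39173456-39197703, minus strand) had 17.5, 17 and 18.8 CPM in MS275 libraries and 35.9, 34.9 and 36.7 CPM in DMSO libraries, a log2 fold change of -1.01 (95% interval -1.28 to -0.75, edgeR adjusted p = 2.63e-07). Every MS275 library lay below every DMSO library, and each group was narrow. CACNB3 had 79.7, 75.5 and 77.9 CPM in MS275 libraries and 98.5, 102 and 94.2 CPM in DMSO libraries (-0.34, edgeR adjusted p = 0.0135, and 0.0665 without DMSO replicate 2). CACNG4 (-0.31, edgeR adjusted p = 0.0181) lost its call without any 1 of 3 libraries, with an edgeR adjusted p of up to 0.148.

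Of the sodium channel genes, a pair of pore genes was called. SCN4A, the skeletal muscle channel, had 17.1, 14 and 17.6 CPM in MS275 libraries and 4.27, 4.69 and 4.97 CPM in DMSO libraries (1.79 ± 0.21 SE, edgeR adjusted p = 5.54e-08). SCN2A (chr2:165194993-165392310, plus strand) had 9.43, 8.81 and 12.3 CPM in MS275 libraries and 17.1, 18.6 and 18.4 CPM in DMSO libraries (-0.84 ± 0.14 SE, edgeR adjusted p = 9.79e-06). The groups were apart for both genes, in opposite directions. SCN8A averaged 64.9 CPM in MS275 and 60.3 CPM in DMSO and was not called, nor was any of the 4 beta subunits.

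Of the 13 channels known for pacing or restraining dopaminergic neurons, 12 were tested and 6 rose: CACNA1G, KCNN3, KCNJ6, KCNJ8, KCNJ11 and HCN2. None fell, where 20.1% of all genes tested rose and 23% fell with MS275. HCN2 had 18.4, 18.4 and 22.3 CPM in MS275 libraries and 10.2, 14.5 and 12.4 CPM in DMSO libraries (0.66, edgeR adjusted p = 0.004). HCN3 averaged 10.1 CPM in MS275 and 12.6 CPM in DMSO (edgeR adjusted p = 0.0575), and HCN4 averaged 10.9 CPM in MS275 and 9.89 CPM in DMSO (edgeR adjusted p = 0.561). CACNA1D stayed low at 0.970 CPM in MS275 and 0.553 CPM in DMSO (edgeR adjusted p = 0.286). Together the 13 genes held 410 to 451 CPM in MS275 libraries and 357 to 367 CPM in DMSO libraries. Most of this sum in both groups was CACNA1H, which was not called with MS275. Dopaminergic markers moved as well, with 4 of 7 tested rising and 1 falling, among them SLC6A3 at 1010 CPM in MS275 and 636 CPM in DMSO.

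Partners of the channels were listed apart from the members. Of 34 tested genes that anchor, traffic or modulate channels, 9 rose and 3 fell in MS275 (median log2 fold change 0.15). Over all genes tested 20.1% rose and 23% fell, and whether this list differed from them was not tested. CNTNAP2, which clusters potassium channels along axons, averaged 22.2 CPM in MS275 and 7.76 CPM in DMSO (1.52, edgeR adjusted p = 3.26e-08). RIMS1, which ties calcium channels to release sites, averaged 5.42 CPM in MS275 and 11.5 CPM in DMSO (-1.09, edgeR adjusted p = 4.47e-06). REST, a repressor of neuronal channel genes, was not called at 21.3 CPM in MS275 and 19.5 CPM in DMSO, while of its 10-gene list with co-repressors 4 fell and 1 rose, led by SIN3A at 22.6 CPM in MS275 and 54.7 CPM in DMSO (-1.29, edgeR adjusted p = 1.24e-09).

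**Figure D3:**
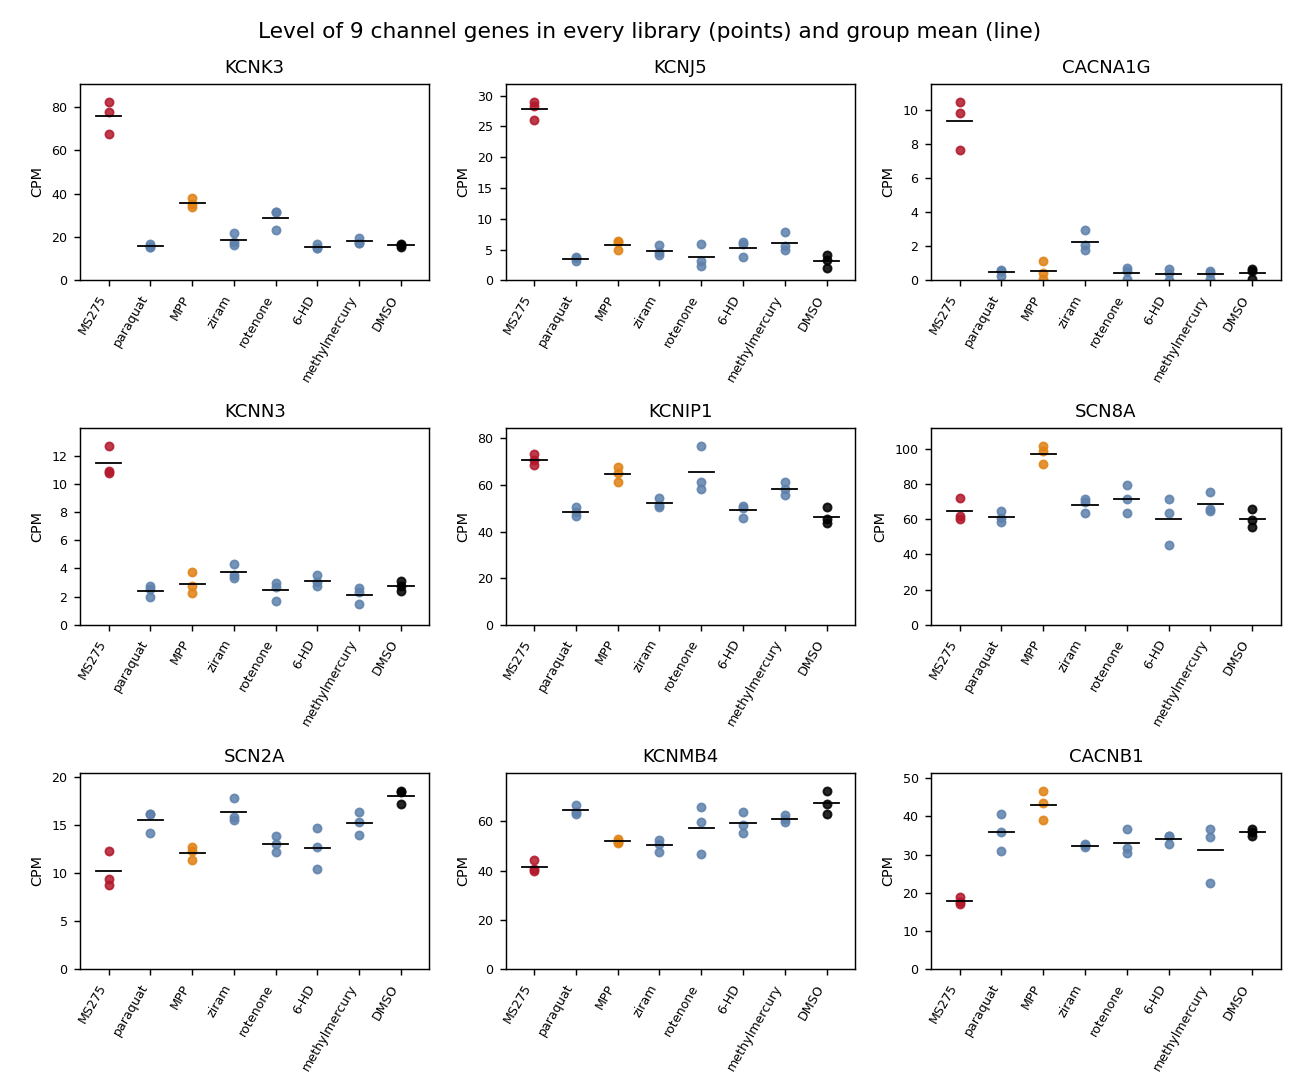
CPM of 9 channel genes in each of the 3 libraries of the 8 groups (points), with the group mean as a line and each axis starting at 0. KCNK3, KCNJ5, CACNA1G and KCNN3 stand highest in MS275, SCN8A in MPP, and SCN2A, KCNMB4 and CACNB1 lie lowest in MS275.

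MPP moved fewer channels. Against DMSO 9 members rose and 4 fell of 112, where 10.8% of all genes were called, 5.77% higher and 5.02% lower, so the members' share of 11.6% was near the background. The median log2 fold change was 0.07 over the members and 0.00 over all genes, and 40 members had no overlap between groups (35.7%, against 36.3% of all genes). Of the members called, 7 potassium channel genes, 1 sodium and 1 calcium channel gene rose, while 2 sodium and 2 potassium channel genes fell.

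KCNK3 had 35.1, 37.9 and 33.9 CPM in MPP libraries and 15.5, 16.8 and 16.2 CPM in DMSO libraries. Every MPP library lay far above every DMSO library, with a log2 fold change of 1.14 (95% interval 0.88 to 1.39, edgeR adjusted p = 2.07e-07). SCN8A (chr12:51590266-51812864, plus strand) had 91.5, 102 and 98.8 CPM in MPP libraries and 59.6, 55.6 and 65.7 CPM in DMSO libraries. The groups were well separated, with a log2 fold change of 0.69 (95% interval 0.45 to 0.93, edgeR adjusted p = 0.000154).

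The other sodium channel calls with MPP were decreases. SCN2A had 11.3, 12.8 and 12.3 CPM in MPP libraries and 17.1, 18.6 and 18.4 CPM in DMSO libraries (-0.58, edgeR adjusted p = 0.00472). SCN3A had 118, 131 and 153 CPM in MPP libraries and 183, 179 and 185 CPM in DMSO libraries (-0.45, edgeR adjusted p = 0.0428). The leading sodium channel gene of these cells was thus lower in every MPP library. Its call held in 1 of 6 fits that left out a library, with an edgeR adjusted p of 0.0284 to 0.179. SCN2A and SCN3A lie on opposite strands with overlapping spans on chromosome 2, and share no exon bases with each other in GENCODE 29.

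Among potassium channels, KCNJ11, the pore of ATP-sensitive channels that open when ATP runs low, had 4.36, 4.25 and 4.01 CPM in MPP libraries and 1.71, 1.98 and 1.71 CPM in DMSO libraries (1.22, edgeR adjusted p = 0.00524). KCNIP1 had 67.5, 65.0 and 61.1 CPM in MPP libraries and 50.4, 45.2 and 43.6 CPM in DMSO libraries (0.48, edgeR adjusted p = 0.000952). Both had separate groups, and both calls held in all 6 fits that left out a library. KCNH2, the ERG channel that limits depolarised states, had 116, 115 and 91.2 CPM in MPP libraries and 79.8, 81.7 and 71.7 CPM in DMSO libraries (0.47, edgeR adjusted p = 0.0142).

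KCNMB2, the inactivating beta-2 subunit of BK channels, had 3.99, 4.94 and 4.38 CPM in MPP libraries and 2.21, 2.02 and 2.45 CPM in DMSO libraries (0.99, edgeR adjusted p = 0.0116). KCNMB4 went the other way, with 52.6, 51.3 and 51.5 CPM in MPP libraries and 72.4, 66.8 and 63.0 CPM in DMSO libraries (-0.38, edgeR adjusted p = 0.0106). The BK beta subunits thus moved in opposite directions. KCNIP2, an A-type subunit like KCNIP1, had 41.6, 37.4 and 40.4 CPM in MPP libraries and 51.6, 51.2 and 52.4 CPM in DMSO libraries (-0.38, edgeR adjusted p = 0.00877). CACNB3 rose to 131, 129 and 117 CPM in MPP libraries, against 98.5, 102 and 94.2 CPM in DMSO libraries (0.36, edgeR adjusted p = 0.0302).

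Several of these calls were lost when 1 library was left out. The call held in 1 of 6 such fits for CACNB3, 2 for KCNJ4 and for KCNJ5, 3 for KCNH2, 4 for KCNMB2, and 5 for KCNIP2 and for KCNMB4. Over the 6 fits that left out a library, the edgeR adjusted p reached 0.113 for CACNB3, 0.0822 for KCNH2, 0.12 for KCNJ4, 0.177 for KCNJ5, 0.0705 for KCNMB2, 0.0681 for KCNIP2 and 0.0751 for KCNMB4. KCNJ4 (0.72, edgeR adjusted p = 0.0222) and KCNJ5 (0.81, edgeR adjusted p = 0.031) completed the increases on the log2 scale. Beside these, 2 of 7 tested dopaminergic markers were lower with MPP and 0 higher, among them TH at 31.7 CPM in MPP and 50.8 CPM in DMSO (-0.68, edgeR adjusted p = 0.00087), and the list's sum was 744 to 887 CPM in MPP libraries and 650 to 768 CPM in DMSO libraries. No astrocyte or oligodendrocyte marker was called with MPP. REST averaged 27.3 CPM in MPP and 19.5 CPM in DMSO (0.48, edgeR adjusted p = 0.0234), and 4 of its 10-gene list rose. Over all genes tested 5.77% were higher with MPP and 5.02% lower.

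Rotenone was the other complex I inhibitor. It raised 6 members and lowered 1, where 5.52% of all genes were called, 2.76% higher and 2.76% lower. At an unadjusted p under 0.05 there were 24 of the 112 tested members, against 19.9% of all genes, and 22 of 112 had no overlap, against 20.9%. With DESeq2's size factor scaling in edgeR the split was 7 higher and 0 lower. KCNK3 had 23.5, 31.8 and 31.6 CPM in rotenone libraries and 15.5, 16.8 and 16.2 CPM in DMSO libraries (0.82 ± 0.13 SE, edgeR adjusted p = 9.28e-05). KCNIP1 had 58.4, 61.1 and 76.7 CPM in rotenone libraries and 50.4, 45.2 and 43.6 CPM in DMSO libraries (0.50, edgeR adjusted p = 0.00155). For both genes every rotenone library lay above every DMSO library, and these calls held whichever library was left out. With rotenone and DMSO fitted alone, KCNK3 was called (edgeR adjusted p = 0.0192) and KCNIP1 was not (edgeR adjusted p = 0.0819).

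The remaining rotenone calls were less firm. KCNJ11 had 3.20, 4.62 and 4.68 CPM in rotenone libraries and 1.71, 1.98 and 1.71 CPM in DMSO libraries (1.18, edgeR adjusted p = 0.0162), KCNMB2 rose by 0.96 on the log2 scale (edgeR adjusted p = 0.0287), KCNJ4 by 0.73 (edgeR adjusted p = 0.0419) and KCNK6 by 0.51 (edgeR adjusted p = 0.0419). SCN2A had 13.9, 13 and 12.2 CPM in rotenone libraries and 17.1, 18.6 and 18.4 CPM in DMSO libraries (-0.47, edgeR adjusted p = 0.0427). Each of these 5 calls was lost in at least 3 of 6 fits without a library, with an edgeR adjusted p of up to 0.0756 for KCNJ11, 0.135 for KCNMB2, 0.207 for KCNJ4, 0.186 for KCNK6 and 0.145 for SCN2A. Beside these, neural precursor markers summed to 232 to 264 CPM in rotenone libraries and 145 to 174 CPM in DMSO libraries, with 2 of 7 higher and 1 lower, and 1 of 9 tested glial markers, MBP, was higher at 31.3 CPM in rotenone and 16.4 CPM in DMSO. Dopaminergic markers summed to 893 to 1238 CPM in rotenone libraries and 650 to 768 CPM in DMSO libraries, with 1 of 7 tested higher and 0 lower. Over all genes 2.76% were higher with rotenone and 2.76% lower. The part of these markers in the result was not tested.

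With ziram 2 members rose and 1 fell, where 0.53% of all genes were called, 0.408% higher and 0.122% lower. At an unadjusted p under 0.05 there were 13 of the 112 tested members, against 6.49% of all genes, and 27 of 112 had no overlap, against 21.2%. KCNJ6, the G-protein-gated GIRK2 subunit of midbrain dopaminergic neurons, had 11.1, 6.18 and 7.46 CPM in ziram libraries and 4.62, 3.76 and 3.67 CPM in DMSO libraries (1.05 ± 0.24 SE, edgeR adjusted p = 0.0359). KCNH3, an EAG-family channel of the forebrain, had 23.3, 22.7 and 22.3 CPM in ziram libraries and 16.5, 12.2 and 13.8 CPM in DMSO libraries (0.69, edgeR adjusted p = 0.0218). KCNMB4 had 47.6, 50.8 and 52.2 CPM in ziram libraries and 72.4, 66.8 and 63.0 CPM in DMSO libraries (-0.42, edgeR adjusted p = 0.0352). None of the 3 overlapped, but KCNJ6 and KCNH3 each held in 1 of 6 fits without a library (edgeR adjusted p up to 0.606 and 0.266) and KCNMB4 in 0 of 6 (0.0515 to 0.369). Scaling by library totals alone left 2 higher and 0 lower. CACNA1G stood at 2.94, 2.09 and 1.80 CPM in ziram libraries, above all DMSO libraries, and was not called (log2 fold change 2.22, edgeR adjusted p = 0.0866).

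No member was called with paraquat, 6-HD or methylmercury, where 0%, 0.0106% and 0.286% of all genes were called by edgeR. The methylmercury calls over all genes were 0.223% higher and 0.0637% lower. At an unadjusted p under 0.05 there was 1 of the 112 tested members with paraquat, 8 with 6-HD and 14 with methylmercury, against 0.965%, 5.7% and 11.5% of all genes. Libraries did not overlap for 7 of the 112 with paraquat, 14 with 6-HD and 22 with methylmercury, against 8.57%, 13% and 19.9% of all genes. DESeq2 called 0, 0 and 3 members in the same order. Values that missed the threshold included KCNMB2, which averaged 1.07 CPM in methylmercury and 2.23 CPM in DMSO (-1.05, edgeR adjusted p = 0.11), KCNJ5 6.08 and 3.18 CPM in the same order (0.86, edgeR adjusted p = 0.144), and SCN2A 12.6 CPM in 6-HD and 18 CPM in DMSO (-0.53, edgeR adjusted p = 0.59).

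All 7 comparisons share the same 3 DMSO libraries, so a DMSO library that stands high or low moves them together. Within that limit, 6 members were called in 3 comparisons, 7 in 2, 39 in 1 and 60 in 0. The same count was not made over all genes, of which MS275 alone called 43.2%, so these numbers have no background beside them. The 39 include KCNG3, KCNS3, KCNJ10 and CACNA1F, which passed the low-count filter only through the MS275 libraries. The 6 were KCNK3, KCNJ4, KCNJ11 and KCNIP1, higher with MS275, MPP and rotenone, SCN2A, lower with the same 3, and KCNMB4, lower with MS275, MPP and ziram. Not all of these calls were firm. Over the 6 fits without a library, KCNMB4 with ziram held in 0 and SCN2A with rotenone in 1. KCNJ4 held in 2 with MPP and in 2 with rotenone, and KCNJ11 with rotenone in 3. The largest values of KCNK3, KCNJ4 and KCNIP1 were with MS275 (2.23, 1.74 and 0.61 on the log2 scale), and that of KCNJ11 was with MPP (1.22). Called members with opposite signs were CACNB3 and KCNIP2. CACNB3 stood at -0.34 with MS275 and 0.36 with MPP, where its call held in 1 of 6 fits without a library. KCNIP2 stood at 0.29 with MS275 (lost without MS275 replicate 2, edgeR adjusted p = 0.126) and -0.38 with MPP.

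**Figure D4:**
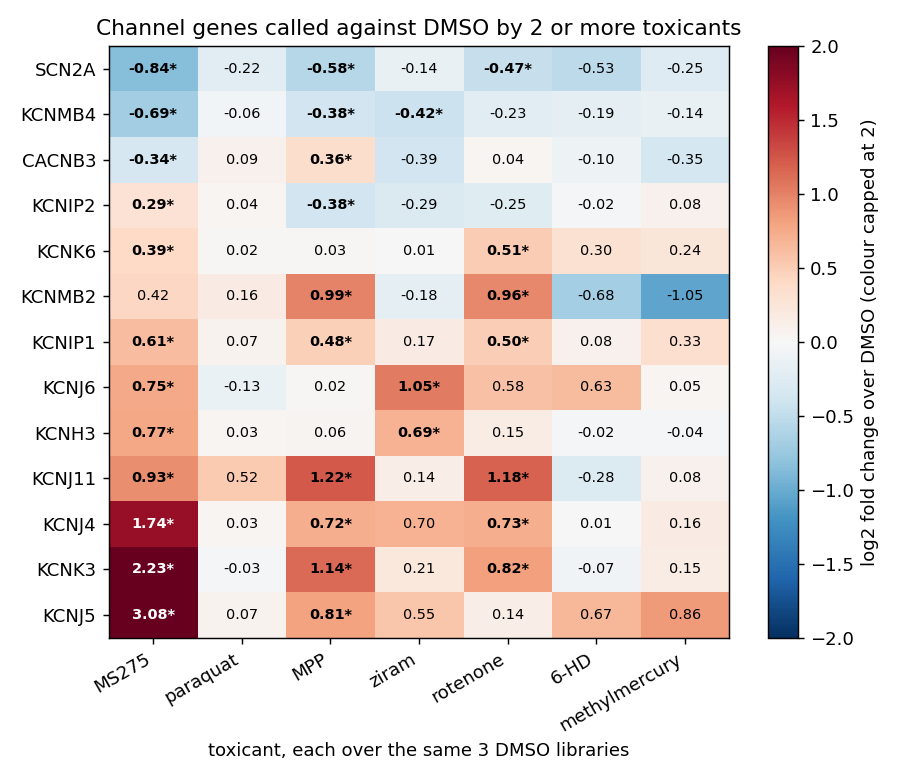
Log2 fold change over DMSO of the 13 members called with at least 2 toxicants, with 1 column for each toxicant; a star marks an edgeR adjusted p under 0.05 and colour is capped at 2. KCNK3 reads 2.23, 1.14 and 0.82 with MS275, MPP and rotenone and between -0.07 and 0.21 with the other 4 toxicants.

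MPP and paraquat, a pair of pyridinium compounds given at the same dose and time, were compared with each other without DMSO. MPP carries a phenyl group on its only pyridinium ring, and paraquat joins a pair of such rings. Against paraquat, 6 members rose with MPP and 3 fell, where 11% of all genes were called, 6.04% higher and 4.94% lower. No overlap was found for 34 of the 112 tested members, against 34% of all genes. Scaling by library totals alone turned the split to 3 higher and 6 lower. KCNK3 had 35.1, 37.9 and 33.9 CPM in MPP libraries and 15.3, 15.3 and 17 CPM in paraquat libraries (1.17, 95% interval 0.91 to 1.42, edgeR adjusted p = 1.51e-07). SCN8A had 91.5, 102 and 98.8 CPM in MPP libraries and 58.6, 60.6 and 64.7 CPM in paraquat libraries (0.67, 95% interval 0.43 to 0.91, edgeR adjusted p = 0.000253). Both genes had separate groups.

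KCNIP1 had 67.5, 65.0 and 61.1 CPM in MPP libraries and 50.5, 46.8 and 48.5 CPM in paraquat libraries (0.41, edgeR adjusted p = 0.00412). KCNIP2 had 41.6, 37.4 and 40.4 CPM in MPP libraries and 50.1, 51.4 and 58.4 CPM in paraquat libraries (-0.42, edgeR adjusted p = 0.00369). These A-type subunits lay apart between the compounds, in opposite directions. KCNMB2 (0.83), KCNJ4 (0.69) and KCNH2 (0.46) were also higher with MPP, and SCN3A (-0.49) and KCNMB4 (-0.32) lower, but these 5 were lost in at least 4 of 6 fits without a library, with an edgeR adjusted p of up to 0.148.

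**Figure D5:**
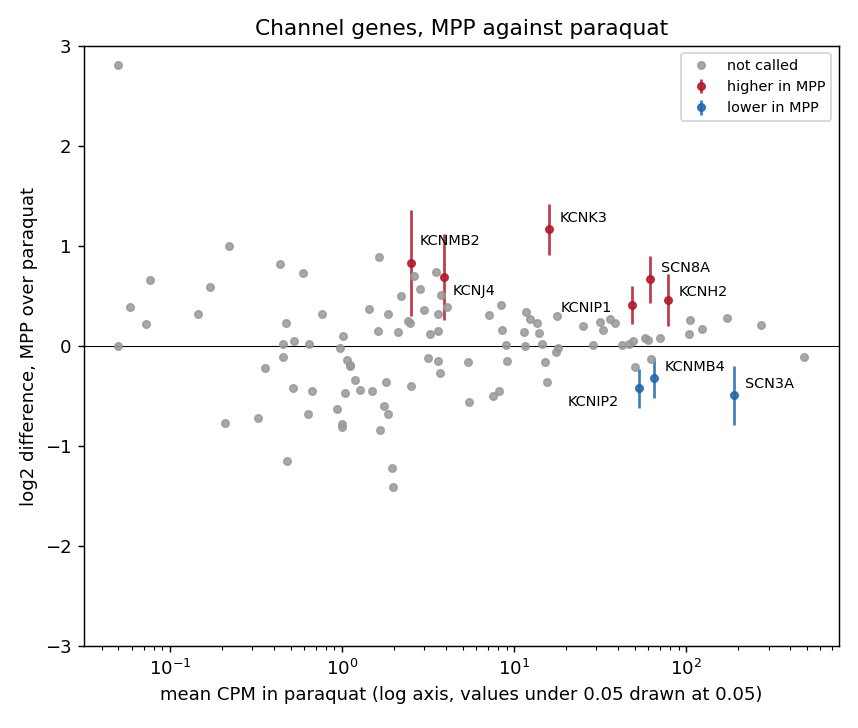
Log2 difference of the tested members, MPP over paraquat, against mean CPM in paraquat on a log axis, with values under 0.05 drawn at 0.05; red points are higher with MPP, blue points lower, grey points not called, and bars on called genes are 95% intervals. KCNK3 stands at 1.17 and SCN8A at 0.67.

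MS275 and MPP, also given at the same dose and time, were compared in the same way. Relative to MPP, 45 members were higher with MS275 and 12 lower, where 50.8% of all genes were called, 24.9% higher and 25.9% lower, with medians of 0.57 over the members and 0.06 over all genes. At an unadjusted p under 0.05 there were 66 of the 112 tested members, against 56.2% of all genes, and 71 of 112 had no overlap, against 59.7%. Differences on the higher side included CACNA1G (4.02), SCN4A (2.32) and KCNJ5 (2.26) on the log2 scale, with an edgeR adjusted p of 8.72e-07, 5.1e-10 and 3e-09. KCNG3 (3.73) lay between CACNA1G and SCN4A and is given without a test, for its filtering as above. CACNA1G, SCN4A and KCNJ5 were also called higher in MS275 than in DMSO, a comparison that uses the same MS275 libraries. On the lower side CACNB1 differed by -1.28 (edgeR adjusted p = 2.55e-09), CACNB3 averaged 77.7 CPM in MS275 and 126 CPM in MPP (-0.70, edgeR adjusted p = 4.44e-06), and SCN8A 64.9 CPM in MS275 and 97.3 CPM in MPP (-0.59, edgeR adjusted p = 0.000106). All two-pore channels but 1 were higher with MS275, at 8 of 9, and inward rectifiers were higher in 8 of 11 and lower in 1. KCNJ10 is counted in that family's rises though it passed the low-count filter only through the MS275 libraries, so its rise carries no weight there. Among the 106 members that pass the filter without those libraries, 43 were higher with MS275 and 12 lower.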

How the data were processed

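The submitters' processing notes name STAR, HTSeq, DESeq and the build GRCh38, and the versions, annotation and strand setting were not given in the sources used here. Raw counts and a normalized signal matrix were deposited by the authors. Each signal column was a count column over a single factor, the counts were used, and 0 columns were without a sample. The counts were fitted with edgeR 4.0.16 (limma 3.58.1, R 4.3.3): TMM scaling, default low-count filter, 1 coefficient per group over 24 libraries (16 residual degrees of freedom), its quasi-likelihood test, and p-values adjusted over 18852 genes after Benjamini and Hochberg (threshold 0.05). Groups came from sample titles. The procedure was tested on simulated counts. Alternatives were DESeq2 1.42.0 and edgeR with its size factors, library totals, no filter, 2 groups alone, a replicate block, a 500-read minimum and leaving out each library. Tables and figures used Python 3.11.15, numpy 2.4.6, pandas 2.3.3, scipy 1.17.1 and matplotlib 3.10.9.

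Members and lists were chosen with earlier results of these data known. The members named first were those called in a comparison, reaching 1 CPM in either group, with separate libraries, the 10 largest folds in each direction. To these were added the 5 highest per kb of each class, members called against DMSO in 3 or more comparisons, HCN genes and 13 pacing channels. Other genes named as examples were chosen after their values were seen. KCNRG shares 66.8% of its exon bases with TRIM13, and reads of KCNJ12 and KCNJ18 may have been exchanged. Some members that this choice would name are not reported here.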

Additional observations from a re-analysis of the deposited data

Results flagged for a closer look

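Antisense genes were left out of the members, and 3 of them carried a signal in MS275 above that in DMSO. CACNA1G-AS1 averaged 0.668 ± 0.0744 CPM in MS275 and 0.0135 ± 0.0233 CPM in DMSO (SD, n = 3 each), a fitted log2 fold change of 5.13. KCNJ2-AS1 averaged 1.09 ± 0.473 CPM in MS275 and 0.151 ± 0.115 CPM in DMSO, with a log2 fold change of 2.96. Outside MS275 the group means were at most 0.0470 CPM for CACNA1G-AS1 and 0.316 CPM for KCNJ2-AS1. Whether these genes pass the low-count filter without the MS275 libraries was not checked, so no test is given for them. KCNQ1OT1, the long antisense RNA within KCNQ1, averaged 78.3 ± 39.2 CPM in MS275 and 25.5 ± 12.1 CPM in DMSO, with a log2 fold change of 1.63 (edgeR adjusted p = 0.00233). Their sense partners CACNA1G, KCNJ2 and KCNQ1 rose in MS275 too, and the strand setting is not stated. In GENCODE 29 the exon bases shared with the antisense gene were 3.32% of KCNJ2 and 2.72% of KCNQ1 (KCNQ1OT1), and none of CACNA1G with CACNA1G-AS1, and reads from shared bases cannot be assigned.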

How the results depend on the processing

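Over fits without 1 library, calls of named members held 457 times and were lost 143 times. No named call changed sign under any setting run, while the members' medians with MPP, rotenone and paraquat did. Scaling by library totals alone moved the median log2 fold change of the members to -0.025 with MPP and 0.079 with ziram, and the median of all genes in MS275 over MPP by 0.11. Without the filter 6 members were called with ziram and 1 with methylmercury, and DESeq2 called 5 and 3. With 2 groups fitted alone the counts were 21 with MPP, 13 with ziram, 1 with rotenone and 17 for MPP over paraquat; the cause was not tested. Leaving out a library gave 37 to 48 calls with MS275, 6 to 12 with MPP, 0 to 1 with ziram, 2 to 13 with rotenone, 4 to 9 for MPP over paraquat, 46 to 52 for MS275 over MPP, 0 to 1 with methylmercury, and 0 with paraquat and 6-HD. The medians then ran from 0.45 to 0.64 with MS275, 0.04 to 0.10 with MPP, 0.027 to 0.055 with ziram, -0.048 to 0.047 with rotenone, -0.11 to -0.05 with 6-HD, -0.11 to -0.02 with methylmercury and -0.02 to 0.02 with paraquat. The replicate numbers do not pair the libraries (correlations of same-numbered deviations from -0.065 to 0.113); a replicate block gave 46 calls with MS275, 12 with MPP, 2 with ziram, 6 with rotenone, 9 for MPP over paraquat and 57 for MS275 over MPP. A minimum of 500 reads moved no count past 1.5 times. Among the 106 members that pass the filter without the MS275 libraries, a check added after seeing the data, MS275 over DMSO gave 37 higher and 7 lower and MS275 over MPP 43 and 12. Members under about 1 CPM rest on few reads, and 6 h and 1 dose per toxicant limit every comparison.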
